A study of Mus musculus with 6 samples.

Results

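The gliosis genes are 9 genes, Gfap, Vim, Nes, Serpina3n, Cp, Nupr1, Gpnmb, Timp1 and Lcn2, chosen by name from 32285 genes in the count tables because they are read as signs of a reactive glial state. Their UMIs (unique molecular identifiers, 1 per captured RNA molecule) were added up in each library for Muller glia, astrocytes, microglia and 8 other cell types of the rd10 mouse retina, and their joint detection was followed within Muller nuclei. All mice were of the strain B6.CXB1-Pde6b-rd10/J, in which a mutation of the rod phosphodiesterase gene Pde6b makes rods die, so the saline controls were degenerating retinas as well and no healthy retina was among the samples. Eyes were injected intravitreally on postnatal day 18 with saline (3 libraries, replicates 1, 2 and 6) or with 20 ng of IL-27 (3 libraries, replicates 4, 5 and 10), and retinas were taken on postnatal day 20. By the study's methods each mouse was injected in 1 eye only. Whether a library was made from 1 retina or from a pool was not given in the sources used here, so p-values measure the spread between these libraries.

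Reactive gliosis is the response of Muller glia and astrocytes to retinal injury, in which intermediate filament genes are turned on and secreted inflammatory and protective proteins are made. Gfap, Vim and Nes encode intermediate filaments of the glial cytoskeleton. Serpina3n encodes a secreted serine protease inhibitor, Lcn2 a secreted protein that binds iron-loaded siderophores, Cp the copper-carrying ferroxidase ceruloplasmin and Timp1 an inhibitor of matrix metalloproteinases, while Nupr1 encodes a stress-induced nuclear protein and Gpnmb a transmembrane glycoprotein of lysosomes and phagocytic cells. IL-27 signals through a receptor made of Il27ra and Il6st. STAT3, a transcription factor downstream of Il6st, is a known regulator of glial reactivity.

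The libraries held 8968 to 9965 barcodes and 36678332 to 48260748 UMIs, and 52193 nuclei were retained, with a median of 2782 to 3787.5 UMIs. No more than 27 barcodes were shared between any pair of libraries. The 4766 Muller nuclei had a median of 4428.5 UMIs and carried all 10 Muller markers, whose summed level was 6655.6 to 7862.5 CPM (counts per 1000000 UMIs of a summed library) in the 6 libraries. The 293 astrocytes had 9 of 10 astrocyte markers, with Gjb6 at 0, and the 1564 microglia had all 10 microglial markers. Xist was at 2254.5 CPM in Muller glia of saline replicate 2 and at 2104.3 CPM in IL-27 replicate 5, and under 1 CPM in the other 4 libraries, so each group held 1 library with Xist. IL-27 replicate 10 had the fewest UMIs of the 6 libraries.

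In the GENCODE M21 annotation of GRCm38, Gfap lies on chromosome 11 (102887336 to 102900912, minus strand), Nupr1 on chromosome 7 (126623249 to 126630861, minus strand) and Cp on chromosome 3 (19957054 to 20009145, plus strand). Timp1 lies wholly within the gene Syn1 on the opposite strand of chromosome X (20870166 to 20874735), and 13201 bases of Cp overlap Hps3 on the opposite strand. How strand was treated in the counting was not given in the sources used here, so reads of these overlapping pairs may not be told apart. Serpina3n (chromosome 12, 104406729 to 104414329) has close relatives in the Serpina3 cluster, and its counts are uncertain to that degree. The upstream 250 bases of the RefSeq promoters (GRCm38.p6) are shown for Gfap, for Nupr1 and Cp, the 2 other members that were higher in Muller nuclei with a Gfap UMI, and for Socs3, the STAT3 target and inhibitor of cytokine signaling that was higher in the same nuclei. Capitals mark matches, on either strand, to TTCNNNGAA (STAT), TGANTCA (AP-1) and CACGTG (E-box).
Gfap, chr11:102897201-102897450, minus strand: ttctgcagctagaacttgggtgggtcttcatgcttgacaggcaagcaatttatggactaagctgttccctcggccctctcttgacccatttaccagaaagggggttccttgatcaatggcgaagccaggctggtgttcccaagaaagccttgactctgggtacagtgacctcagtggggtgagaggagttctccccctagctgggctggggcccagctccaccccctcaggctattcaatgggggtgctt
Nupr1, chr7:126625471-126625720, minus strand: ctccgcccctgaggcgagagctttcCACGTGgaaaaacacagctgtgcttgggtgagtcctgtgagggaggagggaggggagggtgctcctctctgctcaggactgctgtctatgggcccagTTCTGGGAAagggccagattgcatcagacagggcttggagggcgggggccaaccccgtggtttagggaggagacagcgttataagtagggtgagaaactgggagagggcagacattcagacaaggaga
Cp, chr3:19956804-19957053, plus strand: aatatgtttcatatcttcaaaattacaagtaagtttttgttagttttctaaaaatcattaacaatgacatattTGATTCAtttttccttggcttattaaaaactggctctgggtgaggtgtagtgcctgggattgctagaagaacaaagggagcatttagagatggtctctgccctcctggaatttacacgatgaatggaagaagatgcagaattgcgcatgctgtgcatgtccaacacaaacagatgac
Socs3, chr11:117969367-117969616, minus strand: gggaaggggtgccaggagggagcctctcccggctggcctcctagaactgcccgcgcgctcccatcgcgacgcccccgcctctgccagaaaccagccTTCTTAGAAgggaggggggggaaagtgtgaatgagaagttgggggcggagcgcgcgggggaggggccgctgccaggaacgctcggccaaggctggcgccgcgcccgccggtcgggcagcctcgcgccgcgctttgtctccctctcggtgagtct
Among the 10 listed promoters of the 9 members, 1 held the STAT letters (Nupr1, bases -128 to -120 from the start), 1 the AP-1 letters (Cp, -177 to -171) and 1 the E-box letters (Nupr1, -225 to -220). Cp has 2 listed promoters, and the one not shown (chr3:19956999-19957248) held 0 matches to these letters. Over all 32851 promoters of the same length, 7.02% held the STAT letters, 6.75% the AP-1 letters and 6.02% the E-box letters. The Socs3 promoter held the STAT letters at -154 to -146. These matches are letters only and were not tested as sites.

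Where each gene was made differed between members. By mean CPM, Gfap, Serpina3n, Lcn2 and Cp were highest in astrocytes, Gpnmb in microglia, Nupr1 in Muller glia, Vim in horizontal cells, Nes in endothelial cells and Timp1 in pericytes, and for Nupr1, Nes and Timp1 the libraries overlapped those of the next type. These levels are a description over 6 libraries, without a test, because the cell types were themselves clustered on gene expression. CPM rises where nuclei hold few UMIs, so shares of nuclei with a UMI are given beside it, and the share in neurons serves as the background from free RNA. The median UMI count of the 6 neuron types ran from 1265 in rods to 9942 in horizontal cells. Over these types the background was in a narrow range for Gfap (2.93% to 3.85% of nuclei), Gpnmb (2.83% to 3.64%) and Lcn2 (10.02% to 11.3%). It was wider for Cp (18.0% to 25.3%), Nupr1 (3.37% to 6.79%), Serpina3n (3.55% to 6.97%) and Timp1 (0.810% to 2.92%), and Vim ran from 8.10% in cones to 90.5% in horizontal cells.

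Gfap was at 778 ± 136 CPM (SD, n = 6 libraries) in astrocytes and at 53.3 ± 7.51 in Muller glia, a ratio of 14.6 with no overlap of libraries, and 80.5% of astrocytes (95% Clopper-Pearson interval 75.5% to 84.9%) and 14.9% of Muller nuclei (13.9% to 15.9%) held a UMI. Muller glia lay above rods, the next type at 22.3 CPM, in 6 of 6 libraries, and the neighbours below rods overlapped. Microglia held a Gfap UMI in 3.13% of nuclei, within the range of the neurons. Intervals on shares cover counting error only.

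Lcn2 was at 1463 ± 717 CPM in astrocytes and 104 ± 53.1 in Muller glia, and Serpina3n at 434 ± 58.7 and 35.5 ± 8.95. A UMI of Lcn2 was found in 70.0% of astrocytes and 22.5% of Muller nuclei, and one of Serpina3n in 64.2% and 12.7%. In CPM Muller glia and rods did not separate for either gene, since the ranges of libraries overlapped (88.5 CPM of Lcn2 and 27.5 of Serpina3n in rods), while the share of nuclei in Muller glia was above that of every neuron type, whose highest values were 11.3% for Lcn2 and 6.97% for Serpina3n. These shares compare nuclei of unequal depth. With each nucleus thinned to 1000 UMIs, Serpina3n was in 3.64% of Muller nuclei and 2.48% of rods. Lcn2 was in 7.66% of Muller nuclei (6.92% to 8.45%) and 8.13% of rods (7.63% to 8.65%) at that depth. These Lcn2 intervals overlapped, so neither order was shown. The thinning took more UMIs from Muller nuclei (median 4428.5) than from rods (median 1265). In bipolar cells, with a median of 4349 UMIs, Lcn2 was in 10.2% of nuclei, and in 2.38% at 1000 UMIs. Both shares were below those of Muller glia. In microglia Lcn2 was found in 9.72% of nuclei and Serpina3n in 4.35%, which is at the level of the neurons.

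Cp was the member detected most widely in Muller glia, with a UMI in 99.3% of Muller nuclei and 293 of 293 astrocytes. Its level was 7279 ± 1644 CPM in astrocytes and 3021 ± 444 in Muller glia, and both lay above pericytes, the next type at 338 CPM, without overlap. Gpnmb stood at 766 ± 191 CPM in microglia, 15.8 times its 48.5 ± 23.2 CPM in Muller glia, with a UMI in 28.2% of microglia, 12.2% of Muller nuclei and 3.75% of astrocytes. Nupr1 was at 70.4 ± 29.7 CPM in Muller glia and 49.1 ± 12.6 in microglia, higher in Muller glia in 6 of 6 libraries although the ranges overlapped, and it was detected in 20.1% of Muller nuclei against 3.37% to 6.79% over the neuron types. Microglia held a Nupr1 UMI in 10.2% of nuclei. At 1000 UMIs a nucleus, Nupr1 was in 5.50% of Muller nuclei (4.87% to 6.19%), 5.90% of microglia (4.75% to 7.23%) and 3.27% of rods. The intervals of Muller glia and microglia overlapped, so neither order was shown at that depth. Gfap was in 4.57% of Muller nuclei and 2.23% of rods at that depth, and Gpnmb in 4.13% and 2.01%.

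The other 2 filament genes had their highest mean CPM outside the glia. Vim was at 343 ± 42.5 CPM in horizontal cells, 90.5% of which held a UMI, at 216 ± 71.8 in endothelial cells, at 204 ± 52.5 in astrocytes and at 59.9 ± 10.6 in Muller glia. Muller glia held a Vim UMI in 22.1% of nuclei, against a median of 8.49% over the neuron types. At 1000 UMIs the shares were 6.05% in Muller glia, 6.49% in rods and 29.4% in horizontal cells. They were lower in cones (3.56%), bipolar cells (2.18%), amacrine cells (1.68%) and ganglion cells (1.14%). The thinning left out 4219 of 15513 rods, which held under 1000 UMIs. Of the Nes UMIs in the summed nuclei, 46 were from Muller glia, 44 from microglia and 15 from endothelial cells, where the mean of 23.2 ± 16.5 CPM was above that of pericytes in 3 of 6 libraries. Nes had 193 UMIs in all retained nuclei and 43 of 4766 Muller nuclei (0.902%) with a UMI, so differences in Nes were not detectable at this depth within Muller glia. Timp1 had 757 UMIs, its highest level of 12.3 ± 17.1 CPM in pericytes rested on 5 UMIs, and 3.44% of Muller nuclei held a UMI (2.94% to 3.998%) against 0.810% to 2.92% of the neuron types (0.910% of Muller nuclei and 0.540% of rods at 1000 UMIs).

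**Figure D1:**
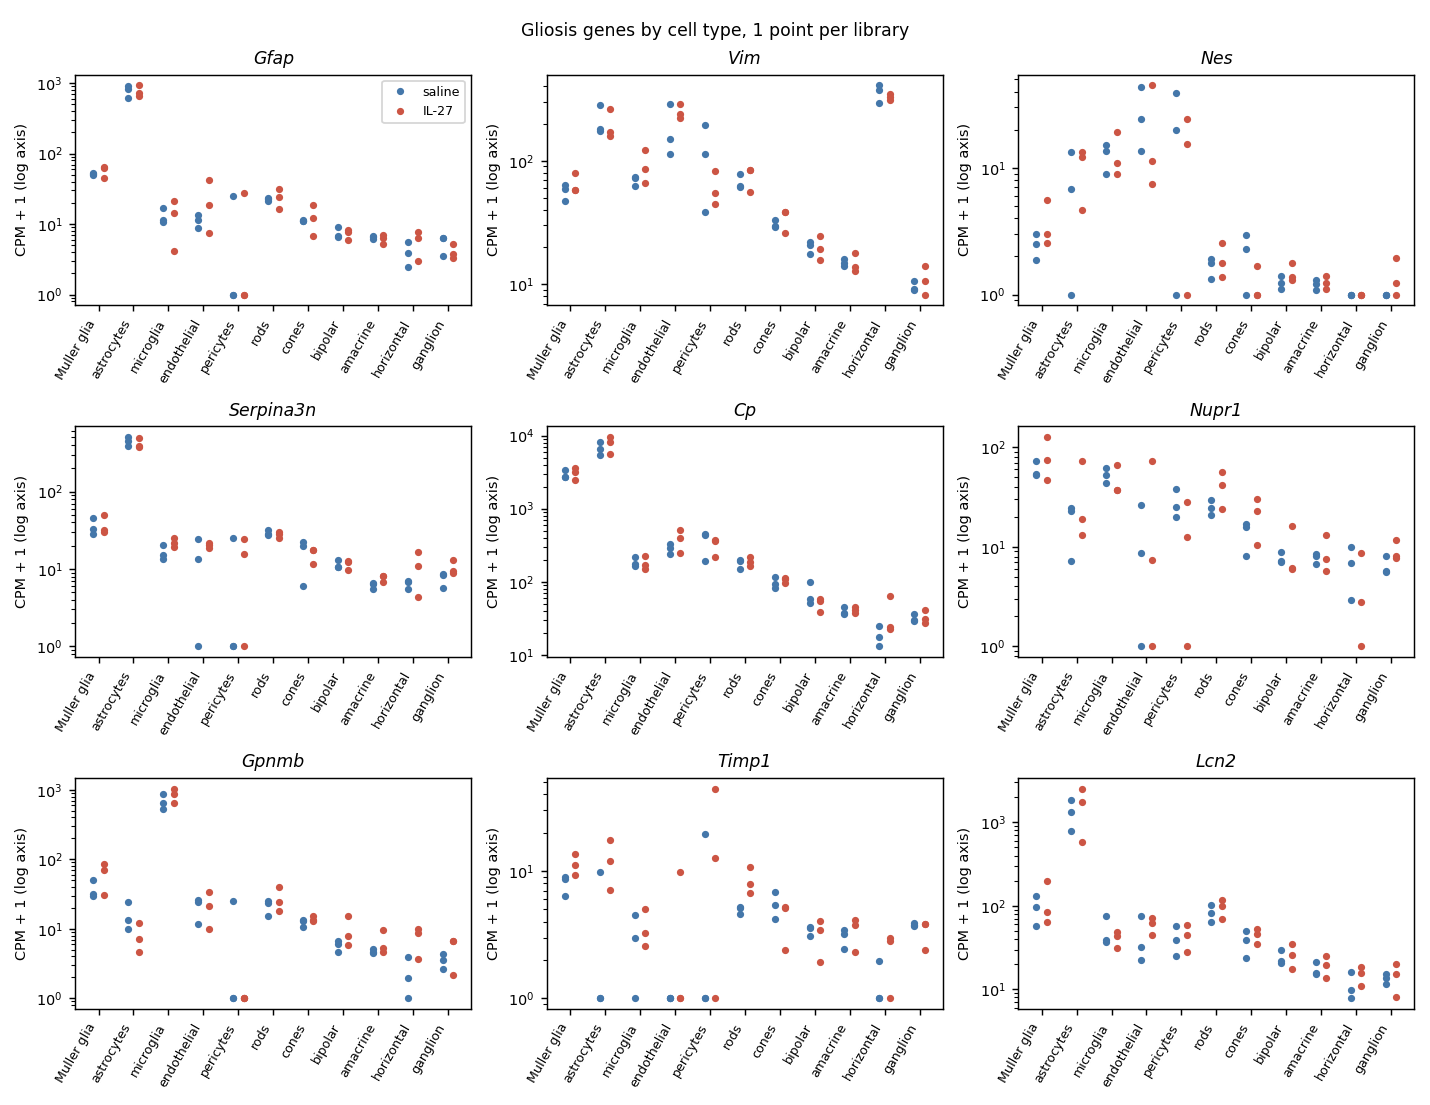
CPM plus 1 of each gliosis gene (log axis) in 11 cell types, with 1 point per library, blue for saline and red for IL-27. Gfap, Serpina3n, Cp and Lcn2 are highest in astrocytes, Gpnmb in microglia and Vim in horizontal cells, and the saline and IL-27 points of a cell type mostly overlap.

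The genes whose levels over the 11 cell types were most like a member's were taken by Pearson's r of log2(CPM + 1) over cell type means, among 17499 genes. Lcn2 (r = 0.988), Serpina3n (0.987) and Fmod, a small collagen-binding proteoglycan (0.987), were closest to Gfap, and the complement gene C3 came next for Lcn2 after Gfap and Serpina3n (0.975). Cp was most like Pdlim3 (0.982) and Pdpn (0.976), Gpnmb like Zfp120 (0.969) and Hmox1, the heme-degrading oxygenase (0.958), and Nupr1 like Zfp36l2 (0.967). Vim and Timp1 were most like Lpcat3 (0.909) and Crtc3 (0.941). The values are a description over 11 points from the same 6 libraries that share depth and free RNA.

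The comparison of IL-27 with saline asks whether the treatment changed gliosis genes in Muller glia by postnatal day 20. In Muller glia, Gpnmb was at 28.8, 49.9 and 31.2 CPM in saline replicates 1, 2 and 6 and at 29.4, 83.7 and 68.3 in IL-27 replicates 4, 5 and 10. Replicates 5 and 10 were above all saline libraries, and IL-27 replicate 4 lay among them. Timp1 was at 5.33, 8.06 and 7.65 CPM after saline and 8.37, 10.2 and 12.5 after IL-27, the 1 member of 9 of which the groups did not overlap in CPM in Muller glia, and replicate 4 exceeded saline replicate 2 by a small margin. Of all 13665 genes tested, 10.4% did not overlap between groups, 5.03% with IL-27 above, so 1 of 9 is near the background. Nupr1 was at 52.7, 72.5 and 51.5 CPM after saline and 46.2, 73.5 and 126 after IL-27, so its groups overlapped and replicate 10 was the highest.

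Gfap itself hardly separated the groups. It was at 49.9, 52.4 and 49.1 CPM after saline and 43.8, 62.0 and 62.7 after IL-27, with IL-27 replicate 4 the lowest of all 6 libraries. Lcn2 was at 56.5, 129 and 95.9 CPM after saline and 63.5, 82.4 and 199 after IL-27, and Serpina3n at 27.3, 44.6 and 31.8 against 29.1, 31.1 and 48.8, and both groups overlapped widely. Cp was at 2716, 3358 and 2743 CPM against 2487, 3168 and 3650, and Vim at 45.9, 58.4 and 62.4 against 56.8, 57.3 and 78.5.

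In edgeR's quasi-likelihood test over 13665 genes, 0 of the 8 members that passed the filter on low counts were called in Muller glia at an adjusted p under 0.05, while 5 genes in all were called (0.0366% of those tested). Nes did not pass the filter. The largest log2 fold changes, IL-27 over saline, were 0.72 ± 0.31 (SE) for Gpnmb (edgeR adjusted p = 0.953), 0.57 ± 0.25 for Timp1 (0.953) and 0.46 ± 0.27 for Nupr1 (0.953). The log2 fold change was 0.15 ± 0.14 for Gfap, 0.20 ± 0.15 for Vim, 0.27 ± 0.36 for Lcn2, 0.07 ± 0.14 for Cp and 0.06 ± 0.21 for Serpina3n, with 0 of these 5 past the threshold. Before adjustment, 2 members, Gpnmb and Timp1, had a p under 0.05 in edgeR and 0 in DESeq2, which called 0 members after adjustment. Of all genes tested 4.92% had such a p in edgeR and 2.61% in DESeq2. The median log2 fold change of the 8 members was 0.24 and that of all genes tested 0.002, with the 8 members above 0 and 50.4% of all genes. Serpina3n, Cp and Lcn2 turned below 0 when 1 library was left out, and members were mostly above 0 in other cell types too, in 7 of 8 tests in rods and 33 of 44 in the 8 types that are not glia. Without the filter on low counts edgeR called Gpnmb (log2 fold change 0.71, edgeR adjusted p = 0.000498) among 117 of 23665 genes (0.494%), and leaving out 1 library moved its log2 fold change between 0.39 and 1.05.

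Astrocytes gave no call either. Gfap was at 613, 905 and 838 CPM after saline and 715, 654 and 941 after IL-27 (log2 fold change -0.04 ± 0.20), and Lcn2 at 794, 1847 and 1311 against 583, 1724 and 2518 (0.27 ± 0.38). Both genes overlapped fully between groups. For Lcn2, IL-27 replicates 4 and 10 were the lowest and the highest of the 6 libraries. Of 5 members tested among 3748 genes, 0 were called by edgeR and 0 by DESeq2, 0 had a p under 0.05 before adjustment (3.5% of all genes), and 0% of all genes were called. In microglia, Gpnmb was at 532, 639 and 881 CPM after saline and at 640, 1034 and 867 after IL-27 (0.31 ± 0.21, edgeR adjusted p = 0.999). There 0 of 6 members were called by either tool and 0 had a p under 0.05 before adjustment (3.92% of all genes), and 0.0219% of 9118 genes were called.

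In the other 8 cell types 44 tests of members were possible, of which 0 were called by edgeR or DESeq2, and 4 had a p under 0.05 before adjustment in edgeR, as did 3.4% of the 80956 tests of all genes in these types. These were Nupr1 (log2 fold change 0.75 ± 0.24) and Timp1 (0.86 ± 0.30) in rods, Gpnmb in bipolar cells (0.92 ± 0.35) and Cp in horizontal cells (1.07 ± 0.37), with edgeR adjusted p from 0.892 to 0.9997. The background of called genes was 0.00738% in rods, 0.00613% in amacrine cells and 0% in endothelial cells, pericytes, cones, bipolar cells, horizontal cells and ganglion cells. Timp1 in rods was at 4.21, 4.17 and 3.59 CPM after saline and 5.75, 9.82 and 6.88 after IL-27, without overlap (8.03% of all genes tested in rods did not overlap), while Nupr1 in rods reached 56.0 CPM in IL-27 replicate 10 against 19.9 to 41.2 in the other 5 libraries. Gpnmb in bipolar cells and Cp in horizontal cells were highest in IL-27 replicate 5, at 14.2 and 63.1 CPM, against 3.61 to 6.99 and 12.1 to 23.7 in the others. Rods, bipolar cells and horizontal cells are among the neurons that served as the background of free RNA, and its part in these 4 values was not tested.

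**Figure D2:**
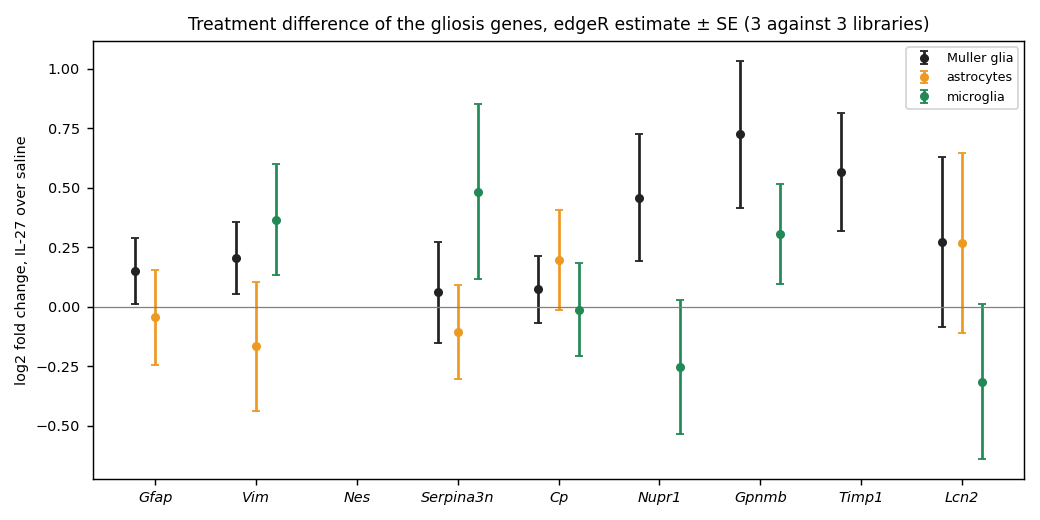
Log2 fold change of each member, IL-27 over saline, with 1 standard error from edgeR in Muller glia (black), astrocytes (orange) and microglia (green), for members past the filter on low counts. The largest values in Muller glia are those of Gpnmb at 0.72 and Timp1 at 0.57, and none passed the threshold.

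Shares of Muller nuclei with a UMI were compared after each nucleus was thinned to 1000 UMIs, which left out 39 of 4766 nuclei. A Timp1 UMI was found in 0.440%, 0.380% and 0.903% of thinned nuclei after saline and 1.27%, 1.09% and 1.57% after IL-27, a difference of 0.734 percentage points, higher in 3 of 3 IL-27 libraries (two-sided exact permutation p = 0.1, the smallest that 3 against 3 libraries allow). Of 14305 genes found in at least 10 thinned Muller nuclei, 9.81% did not overlap between groups, so this 1 of 9 members is near the background. Without thinning, the Timp1 shares overlapped, at 2.96% ± 0.588 (SD, n = 3) after saline and 4.02% ± 0.764 after IL-27. The other 8 members overlapped between groups in the thinned shares. Gpnmb was found in 3.16% ± 0.902 of nuclei after saline and 5.19% ± 2.58 after IL-27 (exact permutation p = 0.4), and Gfap in 4.17% ± 0.300 and 5.05% ± 1.19 (exact permutation p = 0.4). These p-values are for single genes and were not adjusted.

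The share of neurons with a UMI, taken here as the background from free RNA, moved with some of these values. A Gpnmb UMI was found in 2.34% to 2.50% of neurons in the saline libraries and in 2.21%, 5.21% and 3.27% in IL-27 replicates 4, 5 and 10, with replicate 5 the highest and replicate 10 next, as in Muller glia. Nupr1 was found in 7.20% of neurons of IL-27 replicate 10 and in 3.05% to 4.07% of those of the other 5 libraries, and replicate 10 was the highest in Muller glia too. IL-27 replicate 5 also held the most microglia, 430 nuclei or 5.03% of the library, against 2.02% to 3.12% in the other 5 libraries. The part of free RNA in the Muller values was not tested. Timp1 was found in 1.06% to 1.23% of neurons after saline and 0.886% to 1.36% after IL-27.

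**Figure D3:**
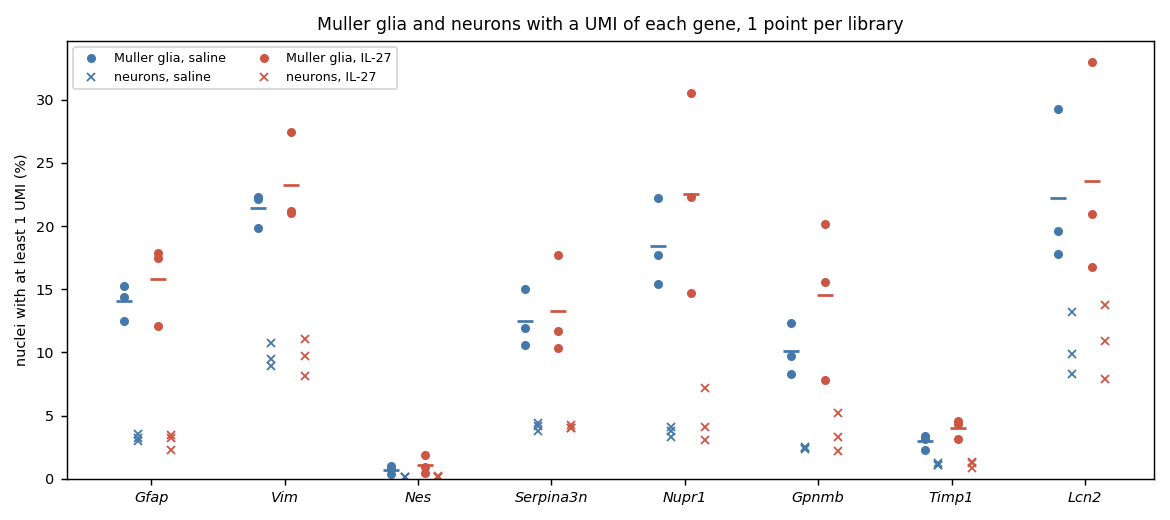
Percent of nuclei with at least 1 UMI of each member except Cp, without thinning, in Muller glia (median 4428.5 UMIs, filled circles, with the group mean as a bar) and in neurons of the same library (median 3112.5 UMIs, crosses), blue for saline and red for IL-27. Muller glia lie above the neurons for every gene shown, and the saline and IL-27 circles overlap for each of them.

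The treatment effect was then compared between cell types in 1 model with the library as a block. Against astrocytes, 0 of 9 members passed the edgeR threshold for a different response (0.0383% of 13065 genes were called), and against microglia 0 of 9 (0.0558% of 14346). Before adjustment, Gpnmb against astrocytes (difference in log2 fold change 1.77 ± 0.87, edgeR adjusted p = 0.985) and Nupr1 against microglia (0.65 ± 0.26, edgeR adjusted p = 0.944) had a p under 0.05, as did 4.97% and 5% of all genes in these comparisons. In astrocytes Gpnmb rested on 12 UMIs.

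The wider programs around the members were described with a list of 45 genes of reactive glia and a list of 25 genes of homeostatic Muller glia. In Muller glia 32 reactive genes were tested, 25 above and 7 below 0 with a median log2 fold change of 0.18, and 0 were called by edgeR or DESeq2. In rods 27 of 32 were above 0, with a median of 0.28, and in horizontal cells 6 of 6, with a median of 0.63, and 0 were called in either. Other types did not share this, with 13 above and 20 below 0 in amacrine cells (median -0.04). Endothelial cells had 2 above and 4 below 0 (median -0.18), and astrocytes 7 and 7. Before adjustment 3 of the 32 in Muller glia had a p under 0.05 upward, A2m (0.69 ± 0.20), which encodes the protease inhibitor alpha-2-macroglobulin, the matrix gene Tnc (0.90 ± 0.37) and the filament gene Synm (0.51 ± 0.23), and 1 downward, the urea transporter Slc14a1 (-0.31 ± 0.11). All 25 homeostatic genes were tested in Muller glia, 9 above and 16 below 0 with a median of -0.06, and 0 were called by edgeR. Bipolar cells had 5 above and 20 below 0 (median -0.20), astrocytes 4 and 14 (-0.12) and microglia 5 and 14 (-0.13). Horizontal cells had 8 above and 5 below 0, and endothelial cells 6 and 3. In Muller glia, before adjustment, 4 of the 25 had an edgeR p under 0.05 downward (Vegfa, Car14, Abca8a and Id1) and 1 upward (Rdh10). Of all 13665 genes tested in Muller glia, 425 had such a p upward and 248 downward. Vegfa, the vascular growth factor (-0.55 ± 0.11, edgeR adjusted p = 0.270), and Rdh10, a retinol dehydrogenase of the visual cycle (0.59 ± 0.12, edgeR adjusted p = 0.321), had the smallest p, and Rdh10 was called by DESeq2 (adjusted p = 0.0232).

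Within Muller glia the members were patchy. Leaving Cp aside, 1694 of 4766 nuclei (35.5%) held no UMI of a member, 1661 (34.85%) held UMIs of 1 member, 891 (18.7%) of 2, 365 of 3, 127 of 4 and 28 of 5. Joint detection was compared with the number expected if the 2 genes were independent within each library and each of 10 equal groups of nuclei by UMI count. Of the 36 pairs of the 9 members, 29 had at least 10 nuclei expected. Of these, 8 held Cp, which was in nearly all nuclei, so that their ratios could not depart far from 1. In the 21 pairs without Cp the observed count was above the expected one, in 8 of them by a ratio of at least 1.2 and in 5 in all 6 libraries. Pairs of other genes were not counted, so whether such an excess is particular to the members was not tested.

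Gfap and Nupr1 were found together in 227 nuclei where 155 were expected (ratio 1.46, from 1.22 to 1.796 over libraries). Gfap and Timp1 shared 44 nuclei against 25.7 (1.71, from 1.22 to 2.41) and Nupr1 and Timp1 62 against 36.5 (1.70, from 1.23 to 2.59). Thus Gfap, Nupr1 and Timp1 were each found with the other 2 more often than expected in 6 of 6 libraries. Nupr1 and Gpnmb shared 174 against 136 (1.28), and Serpina3n and Lcn2 184 against 152 (1.21, from 1.04 to 1.53). Those 5 pairs were above the expected count in 6 of 6 libraries. Serpina3n and Timp1 (33 against 21.8, 1.51) and Timp1 and Lcn2 (58 against 39.7, 1.46) were above it in 4 of 6 libraries, and Gfap and Gpnmb (132 against 101, 1.31) in 5 of 6. The other 13 pairs had ratios from 1.03 to 1.18, among them Gfap and Vim (1.18), Gfap and Lcn2 (188 against 172, 1.09) and Serpina3n and Gpnmb (89 against 84.7, 1.05). These ratios are a description, with no test over nuclei.

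**Figure D4:**
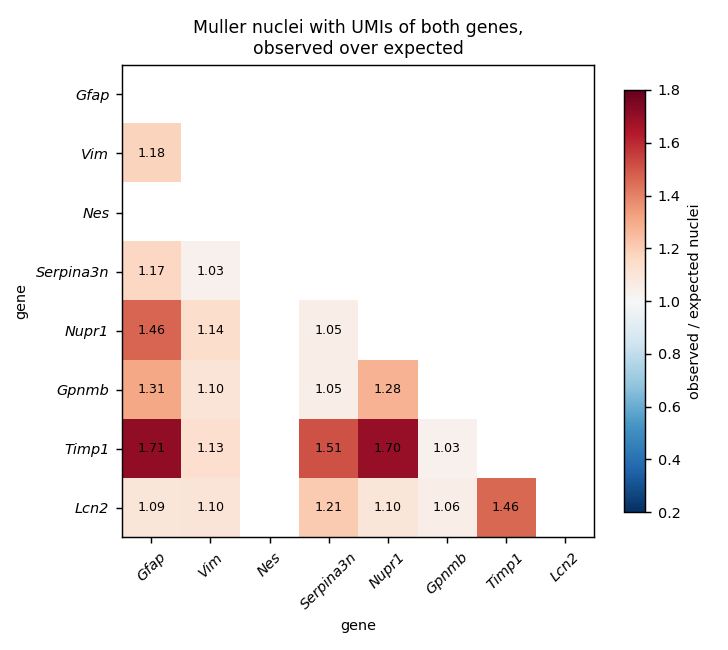
Observed over expected number of Muller nuclei with UMIs of both genes, for pairs of the members other than Cp with at least 10 nuclei expected; colour and printed numbers give the ratio, and pairs with fewer are left blank. Gfap with Timp1 (1.71) and Nupr1 with Timp1 (1.70) are the highest, followed by Serpina3n with Timp1 (1.51), Gfap with Nupr1 (1.46) and Timp1 with Lcn2 (1.46).

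Part of this followed the substructure of Muller glia. A subcluster of 1859 nuclei led by Cdh13, Chst9 and Aff2 held a Gfap UMI in 21.6% of nuclei, Nupr1 in 30.6%, Gpnmb in 19.9% and Timp1 in 5.59%. A subcluster of 1354 nuclei led by Syt10, Trhde and Abca6 held them in 6.35%, 10.5%, 6.28% and 1.11%. In another, of 1219 nuclei led by Gm29683, Efnb2 and Adamts19, Gfap was in 12.4% and Lcn2 in 25.5%, close to the 26.7% of the first, while Nupr1 was in 10.3%. Lcn2 was in 12.4% of the Syt10 subcluster. A group of 223 nuclei led by the interferon-induced genes Iigp1, Rsad2 and Oas2 had Nupr1 in 42.6% and Gfap in 22.9%. Median UMI counts were 4817, 4187, 4156 and 4813 in these 4 subclusters. With the expected count taken within subclusters the ratio was 1.26 for Gfap and Nupr1, 1.10 for Nupr1 and Gpnmb, and it was 1.19 for Serpina3n and Lcn2. It was 1.42 for Gfap and Timp1 and 1.33 for Nupr1 and Timp1. For Gpnmb and Timp1 it fell from 1.03 to 0.90. The Syt10 subcluster made up 38.3%, 26.5% and 51.7% of Muller nuclei after saline and 37.5%, 9.41% and 1.70% after IL-27 (two-sided exact permutation p = 0.2), and the Cdh13 subcluster 32.0%, 36.3% and 26.8% against 29.5%, 53.4% and 60.2% (exact permutation p = 0.3). In both, IL-27 replicates 5 and 10 stood apart from the other 4 libraries, and replicate 4 did not.

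To ask what else marks Muller nuclei with a gliosis gene, nuclei were divided by whether 1 of 1000 thinned UMIs came from Gfap, Serpina3n or Gpnmb, and the UMIs that the thinning had not drawn were summed and compared with edgeR, with the library as a block. The division and the test thus used different molecules. With Gfap, 216 nuclei (29 to 48 per library) were set against 4511. Gfap in the UMIs not drawn was at 268 ± 53.5 CPM (SD, n = 6 libraries) in the nuclei with and at 43.0 ± 6.64 in those without, higher in 6 of 6 libraries (log2 fold change 2.60 ± 0.16).

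Of 10239 genes, 71 were called (0.693%), 32 higher and 39 lower in nuclei with Gfap. The balance of directions depended on the processing, with 37 higher and 17 lower in DESeq2, 14 and 69 when 500 UMIs were used for the division, 67 and 70 without doublet removal, and 27 and 158 without the filter on low counts. Among the other 7 members tested, 2 were called. Nupr1 was higher at 137 ± 74.6 against 68.5 ± 30.4 CPM (0.94 ± 0.18, edgeR adjusted p = 0.00137) and Cp at 4254 ± 694 against 2977 ± 461 (0.47 ± 0.07, edgeR adjusted p = 5.01e-05), each higher in 6 of 6 libraries. In single libraries Nupr1 ran from 73.4 to 277 CPM in the nuclei with Gfap and from 45.7 to 125 in those without. Gpnmb was at 79.4 ± 64.7 against 45.5 ± 20.8 CPM, higher in 4 of 6 libraries (0.77 ± 0.24, edgeR adjusted p = 0.160). Vim, Lcn2, Serpina3n and Timp1 were not past the threshold, with log2 fold changes from -0.11 to 0.85. Other genes higher in nuclei with Gfap were Socs3 (1.71 ± 0.30), Dclk1, a microtubule-associated kinase (0.90 ± 0.11), the adhesion genes Cdh13 (0.65 ± 0.13) and Chl1 (0.55 ± 0.09), the hyaluronan receptor Cd44 (0.64 ± 0.11) and the heparan sulfatase Sulf1 (0.45 ± 0.09). Lower were Glul, the glutamine synthetase of Muller glia (-0.63 ± 0.09, 658 ± 220 against 983 ± 220 CPM), Folh1 (-0.69 ± 0.10), Lsamp (-0.43 ± 0.06), Dab1 (-0.52 ± 0.10), Rora (-0.34 ± 0.07), Fam169a (-0.51 ± 0.10), Gm49470 (-0.83 ± 0.16) and Csmd1 (-3.05 ± 0.59). Csmd1 reversed when 500 UMIs were used for the division (log2 fold change 1.58), and Cp and Cdh13 lost the call there, at 0.03 and 0.06. Cdh13 also lost it without saline replicate 2, and the count of called genes was 41, 39 or 42 without saline replicate 1, 2 or 6. Cdh13 leads the Cdh13 subcluster, in which Gfap was found most often among the 3 large subclusters. Of the reactive list 4 of 28 genes tested were called, all higher, with a median of 0.36 against -0.03 for all genes, and of the homeostatic list 1 of 24 was called higher and 3 lower, with a median of -0.18. The astrocyte markers, a list without Gfap, summed to 337 to 566 CPM in nuclei with Gfap and 341 to 396 in those without, higher in 4 of 6 libraries, and 4 of 10, Pax2, Gja1, Gjb6 and Ntsr2, were at 0 in the nuclei with Gfap.

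With Gpnmb, 195 nuclei (19 to 62 per library) were set against 4532, and 101 of 10327 genes were called (0.978%), 27 higher and 74 lower (21 and 35 in DESeq2, 15 and 202 without the filter). Gpnmb was at 308 ± 78.3 against 34.0 ± 14.7 CPM in the UMIs not drawn. Of the other 6 members tested 0 passed the threshold in edgeR, and Gfap and Lcn2 had a p under 0.05 before adjustment, as did 7.53% of all genes. Lcn2 was at 91.7 ± 46.1 against 105 ± 58.6 CPM (-0.44 ± 0.20), and Gfap was at 90.2 ± 46.2 against 51.8 ± 7.16 CPM (0.72 ± 0.22, edgeR adjusted p = 0.0773), which passed without saline replicate 6 or IL-27 replicate 10, at 0.82 and 0.89. The lysosomal protease gene Ctsd (0.68 ± 0.14), the cholesterol exporter Abca1 (0.57 ± 0.10), Cd44 (0.76 ± 0.11) and Magi2 (0.46 ± 0.09) were higher, as were the noncoding RNAs Neat1 (0.91 ± 0.12) and Pvt1 (1.64 ± 0.25), Srgap1 (1.47 ± 0.26) and A330102I10Rik (2.09 ± 0.35). Glul was lower here too, at 611 ± 198 against 985 ± 216 CPM (-0.81 ± 0.10, edgeR adjusted p = 2.06e-11), with Adamts19 (-1.55 ± 0.19), Meg3 (-1.06 ± 0.15), the chloride channel Ano1 (-0.94 ± 0.14), Inpp4b (-1.10 ± 0.17), the transporter gene Abca8a (-0.62 ± 0.09), Col9a1 (-0.60 ± 0.09) and Zfp804b (-0.53 ± 0.09). Neat1 is among the leading genes of the Cdh13 subcluster, where 19.9% of nuclei held a Gpnmb UMI. Adamts19 and Zfp804b are among those of the subcluster led by Gm29683 (6.56%), and Abca8a among those of the Syt10 subcluster (6.28%). The part of the subclusters in these calls was not tested. Of the homeostatic list 5 of 24 genes were called, all lower, with a median of -0.21 against -0.03 for all genes, and of the reactive list 1 was called higher and 1 lower. Muller markers summed to 6126 to 6651 CPM in nuclei with Gpnmb and 6641 to 7856 in those without, higher in 0 of 6 libraries. Microglial markers summed to 117 to 232 CPM in nuclei with Gpnmb and 188 to 245 in those without, higher in 3 of 6 libraries, with Tmem119 at 0. Astrocyte markers summed to 401 to 683 against 343 to 388 CPM, higher in 6 of 6 libraries, with Pax2 and Gjb6 at 0, and their part in the result was not tested. Leaving out saline replicate 1 or 2 gave 59 or 66 called genes, fewer by over 1.5 times.

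With Serpina3n, 172 nuclei (21 to 38 per library) were set against 4555, and 10 of 10422 genes were called (0.096%), 9 higher and 1 lower. Without doublet removal 8 were higher and 40 lower, and without the filter 10 and 21. When 500 UMIs were used for the division, edgeR called 0 genes, with 69 higher and 498 lower at a p under 0.05 before adjustment. Serpina3n was at 136 ± 108 against 31.0 ± 6.53 CPM, and at 347 CPM in saline replicate 2 alone. Lcn2 was at 68.4, 347 and 300 CPM in the nuclei with Serpina3n of saline replicates 1, 2 and 6 and at 401, 125 and 516 in those of IL-27 replicates 4, 5 and 10, against 53.9, 119 and 89.0 and 51.4, 77.4 and 184 in the nuclei without. The nuclei with Serpina3n were thus higher in 6 of 6 libraries (1.499 ± 0.16, edgeR adjusted p = 2.73e-16). DESeq2 called Lcn2 as well (1.55), and with 500 UMIs it was at 1.09 and lost the call (edgeR adjusted p = 0.309). Cp was higher too (0.35 ± 0.09, edgeR adjusted p = 0.0464), but it lost the call in DESeq2, without the filter, and when saline replicate 2 or either of IL-27 replicates 4 and 5 was left out, and it reversed when 500 UMIs were used. Dclk1 was higher in 6 of 6 libraries (0.72 ± 0.12) and lost the call in DESeq2, with 500 UMIs, without doublet removal and without IL-27 replicate 4. Gfap was not past the threshold in nuclei with Serpina3n (0.41 ± 0.26, edgeR adjusted p = 0.866), and Gpnmb was at 29.2 ± 20.0 against 47.7 ± 22.5 CPM (edgeR adjusted p = 0.786). Astrocyte markers summed to 270 to 411 CPM in nuclei with Serpina3n and 347 to 398 in those without, higher in 3 of 6 libraries. Microglial markers summed to 199 to 298 against 187 to 241 CPM, higher in 5 of 6 libraries. The part of these markers in the result was not tested. The 3 divisions share most of their nuclei without a UMI, so their values are set side by side and were not compared by a test.

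**Figure D5:**
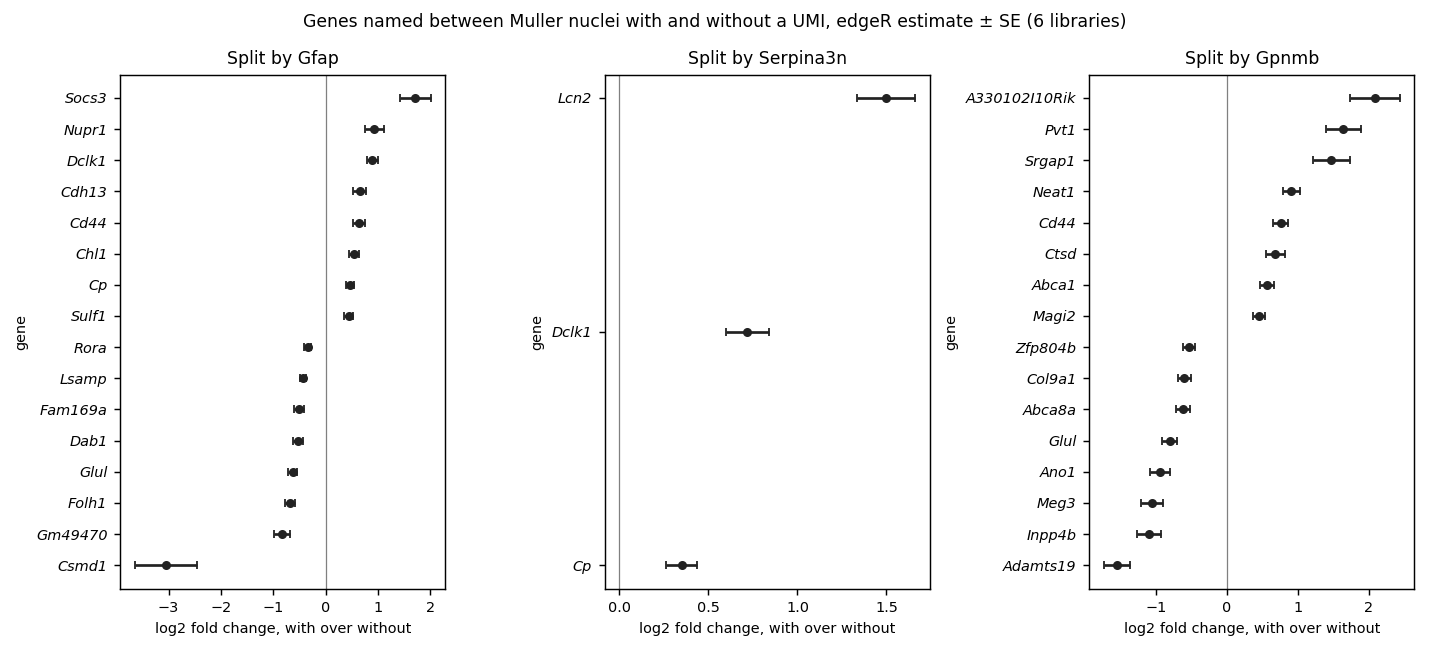
Log2 fold change with 1 standard error (edgeR, 6 libraries) of the genes named for Muller nuclei with against without a UMI of Gfap (left), Serpina3n (middle) and Gpnmb (right); the horizontal axes differ. Cd44 is higher and Glul lower in both outer panels, and Lcn2 leads the middle panel at 1.499.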

How the data were processed

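Single nuclei of rd10 retinas in 6 libraries were profiled by droplet RNA sequencing, 3 after saline and 3 after IL-27. The authors deposited whole UMI counts per gene and barcode, made with Cell Ranger (9.0.1 in the submitters' processing notes, 8.0.1 in the matrix headers), and Seurat 5.2.1 is named for later steps. The strand setting of the counting was not given in the sources used here. The matrices were filtered before deposit, and no cell annotation was used.

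Barcodes with over 500 UMIs, at least 200 genes and under 5% mitochondrial UMIs were kept, and doublets were removed by Scrublet score at a rate of 8% (scanpy 1.11.5). Clusters were built on 2000 variable genes and 25 components (20 neighbours, resolution 0.25, seed 20) and named only where at least 3 fixed markers led. A cluster of 682 nuclei high in Fbln1 stayed unnamed and outside Muller glia. UMIs were summed per library and type, without nuclei whose log2 count lay more than 2 median absolute deviations off the median. Muller nuclei were divided on 1000 thinned UMIs and tested on the rest.

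The tests were edgeR 4.0.16 quasi-likelihood fits (filterByExpr at 10 counts, TMM, Benjamini-Hochberg over all genes, threshold 0.05) in R 4.3.3, with the library as a block for paired sums, and two-sided exact permutation tests of shares. DESeq2 1.42.0, its size factors, no filter, all retained nuclei, no doublet removal, other thinning depths and leaving out each library were alternatives. Including the Fbln1-high cluster, and leaving out 2 small Muller subclusters, were added after seeing the data. On simulated data with 200 genes changed by 1.5 on the log2 scale, 186 were called with 16 false calls in the Muller comparison (13665 genes), and 152 with 3 false calls in the division by Gfap (10239 genes). The largest log2 fold change of a member in Muller glia was 0.72 (Gpnmb), and recovery of changes of that size was not tested. The self-test and the intervals cover no error beyond these 6 libraries.

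The members and lists were chosen with earlier results of these data known. Named were the 9 members, the 3 genes most like each member with at least 200 UMIs, up to 5 list genes per direction past the threshold, and up to 8 genes per direction past it with 1 sign in 6 libraries in each division of Muller nuclei. List genes short of the threshold (A2m, Tnc, Synm, Slc14a1, Vegfa, Rdh10, Car14, Abca8a, Id1) were chosen after their values were seen. Per-sample columns not used numbered 0.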

Additional observations from a re-analysis of the deposited data

How the results depend on the processing

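Without the filter on low counts, edgeR called 1 member in Muller glia (Gpnmb), 1 member test in the other 8 cell types (Nupr1 in rods), 4 reactive genes (Cxcl10, A2m, Mt2 and Fkbp5) and 3 homeostatic genes (Rdh10, Id1 and Vegfa), and 185, 31 and 217 genes in the divisions by Gfap, Serpina3n and Gpnmb. Calls over all genes rose as well, from 5 of 13665 to 117 of 23665 (0.494%) in Muller glia and from 1 to 35 (0.145%) in rods. The cause was not tested. DESeq2 called 1 homeostatic gene, and 2 and 56 genes in the divisions by Serpina3n and Gpnmb. It gave no adjusted p for 7 of the named results of the divisions. These were Socs3 and Csmd1 in the division by Gfap, and Gfap, Pvt1, A330102I10Rik, Srgap1 and Adamts19 in that by Gpnmb. With 500 UMIs the divisions by Serpina3n and Gpnmb gave 0 and 38 genes, with 2 libraries (saline replicate 6 and IL-27 replicate 5) and 1 library (IL-27 replicate 4) left out for having under 10 nuclei. Without doublet removal the 3 divisions gave 137, 48 and 64 genes, and with the Fbln1-high cluster, an alternative added after seeing the data, the division by Gpnmb gave 154 and that by Gfap 60 higher and 28 lower.

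Leaving out 1 library gave 39 to 72, 7 to 14 and 59 to 99 genes in the divisions by Gfap, Serpina3n and Gpnmb. The number of members whose thinned Muller shares did not overlap, 1 with all libraries, ran from 1 to 4 (Gfap, Nes, Gpnmb and Timp1 without IL-27 replicate 4), and it was 0 without thinning, at 2000 UMIs, without doublet removal and with the Fbln1-high cluster. Of 14305 genes, 9.81% did not overlap with all libraries, 18.6% to 22.1% with 1 left out and 10.2% to 11.9% under the other settings. Directions turned with 1 library left out for members short of the threshold. In Muller glia these were Serpina3n (-0.17 to 0.29), Cp (-0.035 to 0.20) and Lcn2 (-0.33 to 0.58), in astrocytes Gfap (-0.24 to 0.074), Vim (-0.45 to 0.12) and Lcn2 (-0.27 to 0.68), and in microglia Cp (-0.21 to 0.13) and Lcn2 (-0.50 to 0.13). Cp in microglia also turned without the filter (0.032) and over all retained nuclei (0.0022). Among genes named in the divisions, Csmd1 with Gfap (1.58) and Cp with Serpina3n (-0.29) turned at 500 UMIs, and Dclk1 with Serpina3n turned with the Fbln1-high cluster (-0.074). Of 37 such results, 19 kept direction and side of the threshold at 500 UMIs and 16 lost the call. With the Fbln1-high cluster 25 kept them, without doublet removal 29, without the filter 36, and in DESeq2 28 of the 30 with an adjusted p. Leaving out 1 library kept them in 215 of 222 fits.

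No paired analysis was possible because the saline and IL-27 libraries share no replicate number. With 3 libraries a group, the exact tests of shares cannot give a p below 0.1. Nes and Timp1 rested on few UMIs.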

Other observations

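The Fbln1-high cluster of 682 nuclei, which was named for no cell type, held gliosis genes as well. It was scarce in 2 libraries, with 12 and 6 summed nuclei in IL-27 replicates 4 and 5 against 230, 220 and 108 in saline replicates 1, 2 and 6 and 103 in IL-27 replicate 10. Lcn2 was at 45.2, 73.7 and 119 CPM there in saline replicates 1, 2 and 6 and at 85.8, 1505 and 119 in IL-27 replicates 4, 5 and 10. Cp was at 1419, 1422 and 1600 CPM after saline and at 3719, 4236 and 1236 after IL-27, so both groups overlapped. The Lcn2 values of IL-27 replicates 4 and 5 rest on 3 and 43 UMIs, and the Cp values on 130 and 121.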
